A study of Mus musculus with 6 samples.

Results

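The insulin-like growth factor (IGF) system was followed in sorted GFP+ cells, labelled neural crest cells (NCCs), through 10 genes named by their symbols: the ligand gene Igf1, the receptor genes Igf1r and Insr, the adaptor gene Irs1, and the binding protein genes Igfbp2, Igfbp3, Igfbp4, Igfbp5, Igfbp6 and Igfbp7. All 10 were found among the 46983 genes of the count table by matching Ensembl identifiers to GENCODE M21, and 9 of them passed the filter on low counts. Igfbp6 did not. RNAseq was carried out on cells sorted at E11.25 in 3 control libraries (Wnt1Cre/+; BAF155flox/+; BAF170flox/+; Rosa26mTmG/+) and 3 deficient libraries, homozygous for both floxed alleles (Wnt1Cre/+; BAF155flox/flox; BAF170flox/flox; Rosa26mTmG/+). BAF155 and BAF170 are core subunits of the BAF chromatin remodeling complex, and the comparison asks which genes depend on them in NCCs. The controls carry the same Cre and reporter alleles and are heterozygous for both deletions, so they are not wild type. The methods name 3 embryos of each genotype, but the labels do not tie each library to 1 embryo, so p-values measure the spread between libraries. The mTmG reporter turns on GFP in every cell with a history of Cre activity, and Wnt1 drives Cre in the dorsal neural tube as well as in the neural crest.

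IGF-I and IGF-II are secreted growth factors that act through the IGF1 receptor, a receptor tyrosine kinase, and in part through the related insulin receptor. The activated receptors phosphorylate docking proteins such as IRS1, which pass the signal to PI3K, Akt and mTOR and so promote growth and survival of embryonic cells. IGF binding proteins (IGFBPs) hold IGFs outside the cell and can either withhold them from the receptor or bring them to it. In the embryo, IGF-II is the main growth-promoting ligand, mesenchyme is a rich source of IGFBPs, and Igf1 is also expressed by tissue macrophages.

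Counts on genes ranged from 8191219 to 11661941 in the control libraries and from 12633319 to 19808620 in the deficient libraries. Levels below are CPM, that is, counts scaled to the TMM-normalized library size. Smarcc1, which encodes BAF155, had a log2 fold change of -0.71 (SE 0.16, adjusted p = 0.0676, edgeR quasi-likelihood, Benjamini-Hochberg), and Smarcc2, which encodes BAF170, one of -0.11 (SE 0.058, adjusted p = 0.251). Gene counts would include transcripts that lack only the floxed exons, but counts of single exons were not examined. The sorted cells held neural crest transcripts at modest levels: Sox10, a defining factor of the crest, lay between 2.22 and 7.76 CPM in the controls and between 0.855 and 1.49 CPM in the deficient libraries. The 16 listed mesenchymal crest markers summed to between 72.1 and 123 CPM in the controls and between 36.0 and 58.8 CPM in the deficient libraries, with none at 0 in all libraries. The 13 listed macrophage markers, led by Ctss, summed to between 12969 and 15008 CPM in the controls and between 15130 and 16515 CPM in the deficient libraries, again with none at 0. Macrophages are not of neural crest origin and a gate on GFP should leave them out, yet their marker sum exceeded the crest sum in every library. The sums hold different genes, so they do not measure the share of each cell type. The source of the macrophage transcripts was not tested. In such bulk RNA, fewer cells of a type and less of a transcript per cell cannot be told apart.

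Insr, Irs1 and Igfbp5 were called lower in the deficient libraries. On the fitted scale Insr fell by 45.9%, Irs1 fell by 42.9% and Igfbp5 fell by 57.8%. Genes were called where the edgeR p, adjusted by Benjamini-Hochberg, did not exceed 0.1, the log2 fold change reached 0.58 in either direction and the mean level reached 2 CPM. Thus 3 of the 9 tested IGF genes were called, all lower, where of all 13961 genes tested 4.94% were called, 4.88% lower and 0.0573% higher. No IGF gene was called higher by edgeR, DESeq2 or limma-voom, and 0 had a higher level with an unadjusted edgeR p under 0.05. The median log2 fold change of the 9 tested genes was -0.62, against -0.018 for all tested genes, and 7 of the 9 lay below 0, as did 52.3% of all. By the adjusted p alone the same 3 genes passed, all lower, where 11.9% of all genes passed, 7.75% lower and 4.18% higher. An unadjusted edgeR p under 0.05 was found for 4 of the 9, all lower, and for 27.3% of all genes. Control and deficient libraries did not overlap in 4 of the 9, namely Igf1, Insr, Irs1 and Igfbp5, where 31.4% of all tested genes had groups that did not overlap. Of these 4, 3 were lower and 1 higher, against 16.4% and 15% of all genes.

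**Figure D1:**
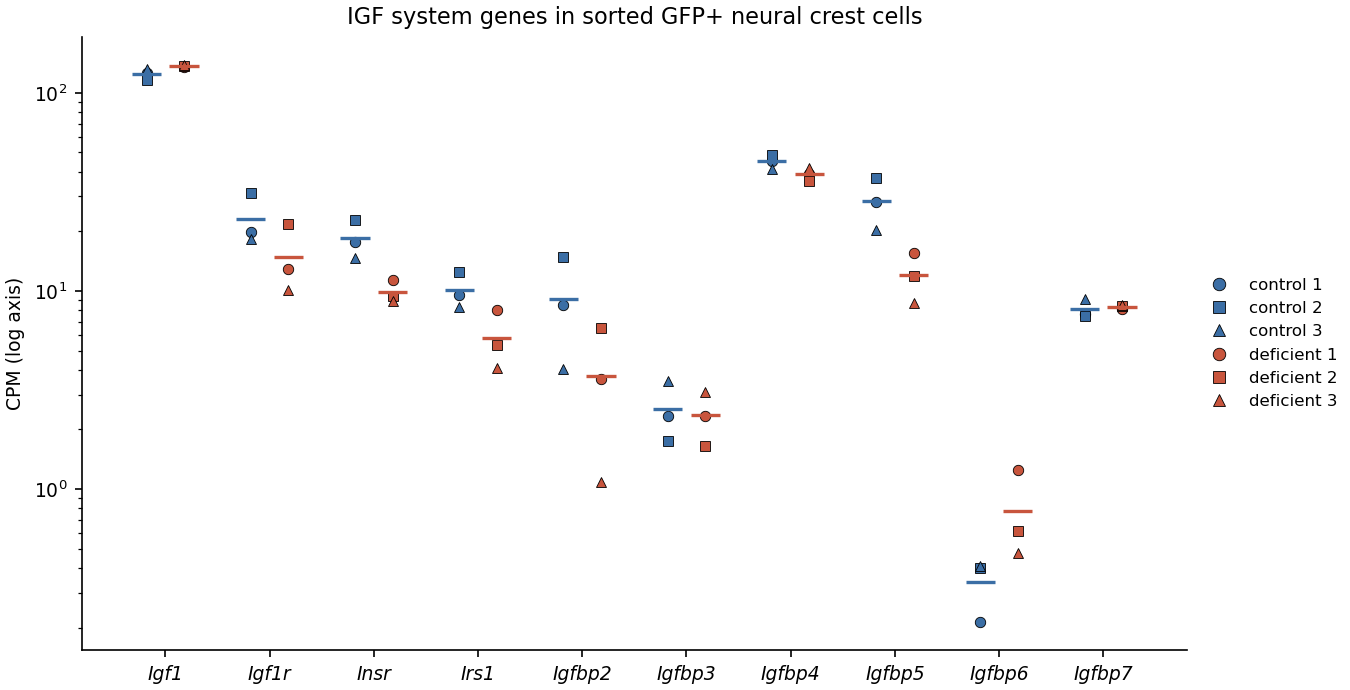
Level of each of the 10 genes in each library, in CPM on a log axis. Each point is 1 library, with blue for control and red for deficient, the marker shape gives the replicate number, and the horizontal bars are group means. Insr, Irs1 and Igfbp5 are lower in all 3 deficient libraries than in all 3 controls, while the Igf1 and Igfbp7 points stay close together.

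To show the regulatory sequence of genes called lower, the 250 bases upstream of the RefSeq start of Igfbp5 and Irs1 are given. These starts differ from the GENCODE gene ends given below, and the Igfbp5 window runs into its GENCODE gene. Positions count from the RefSeq starts. RefSeq promoter windows (GRCm38.p6) were found for 9 of the 10 genes, all but Insr, and the motifs were chosen with the values known. The windows were searched on both strands for GGAATG, the core letters bound by Tead factors, which the study examined with Yap, and for the FoxO element GTAAACA and the TATA box TATAAA. The Igfbp5 window lies at chr1:72874866-72875115 and the Irs1 window at chr1:82291440-82291689, both on the minus strand. Each is written 5′ to 3′ along the gene, and capitals mark GGAATG or its reverse complement CATTCC.
Igfbp5: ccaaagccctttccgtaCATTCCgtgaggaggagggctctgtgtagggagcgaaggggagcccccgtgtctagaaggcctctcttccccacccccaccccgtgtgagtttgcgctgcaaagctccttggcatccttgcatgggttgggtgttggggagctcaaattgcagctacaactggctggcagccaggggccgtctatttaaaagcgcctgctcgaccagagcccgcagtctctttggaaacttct
Irs1: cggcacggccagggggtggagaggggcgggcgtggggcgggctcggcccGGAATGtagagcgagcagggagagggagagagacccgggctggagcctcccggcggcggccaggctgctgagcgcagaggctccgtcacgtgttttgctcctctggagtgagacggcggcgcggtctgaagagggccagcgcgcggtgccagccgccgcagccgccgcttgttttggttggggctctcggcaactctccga
The Tead letters begin at position -233 of Igfbp5, as CATTCC, and at position -201 of Irs1, as GGAATG. They were in none of the windows of the other 7 genes. Of all 32851 windows of this length, 12.6% hold the letters on either strand. GTAAACA was in no window of these genes, against 3.17% of all windows. TATAAA was in the windows of Igfbp4 (position -28) and, on the reverse strand, Igfbp6 (position -148), against 12.4% of all windows, and no match overlapped another. A match is a description of letters, and binding was not measured here. The study searched longer promoter stretches of its differentially expressed genes for Tead motifs, so its counts cannot be set beside these.

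Among the receptors and their adaptor, Insr had the lowest adjusted p. Insr (ENSMUSG00000005534.9, GRCm38 chr8:3122061-3279617, minus strand) encodes the insulin receptor. Its level was 17.8, 22.9 and 14.6 CPM in the controls (replicates 1, 2 and 3 in order, as throughout), against 11.4, 9.47 and 8.93 CPM in deficient cells. Every deficient library lay below every control library. The log2 fold change was -0.89 (SE 0.17, 95% interval -1.26 to -0.51, adjusted p = 0.0483, edgeR with Benjamini-Hochberg adjustment). The call was lost on leaving out control replicate 1 (edgeR adjusted p = 0.214), control replicate 2 (edgeR adjusted p = 0.116) or deficient replicate 3 (edgeR adjusted p = 0.139).

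Irs1 (ENSMUSG00000055980.2, chr1:82233101-82291416, minus strand) encodes the docking protein that links both receptors to PI3K. It had 9.57, 12.4 and 8.29 CPM in the controls, against 7.99, 5.32 and 4.08 CPM in deficient cells. The groups did not overlap, but deficient replicate 1 lay close under control replicate 3. Irs1 fell by 0.81 on the log2 scale (SE 0.26, 95% interval -1.37 to -0.25, edgeR adjusted p = 0.0940). This call was lost without any 1 of control replicate 1 or 2 or deficient replicate 2 or 3, with edgeR adjusted p values between 0.190 and 0.287. Exons of Irs1 overlap 2822 bases of Gm9747 on the opposite strand, and the strand setting of the counting is not given in the sources used here.

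Igf1r (ENSMUSG00000005533.9, chr7:67952827-68233668, plus strand) encodes the main signaling receptor for both IGFs. Its level was 19.9, 31.3 and 18.3 CPM in the controls, against 12.9, 21.7 and 10.2 CPM in deficient cells. Deficient replicate 2 lay above control replicates 1 and 3, so the groups overlapped. The log2 fold change of -0.62 (SE 0.36, 95% interval -1.52 to 0.27) did not pass (edgeR adjusted p = 0.323). The interval includes both no change and a fall larger than that of Insr, and a difference between the 2 receptors was not tested.

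The ligand gene Igf1 (ENSMUSG00000020053.18, chr10:87858265-87937042, plus strand) had the highest level of the 10 genes in every library, both in CPM and per kilobase of exon. It had 126, 117 and 132 CPM in the controls, against 135, 137 and 139 CPM in deficient cells. All deficient libraries lay above all controls, by a small margin, with a log2 fold change of 0.13 (SE 0.061, 95% interval -0.0023 to 0.27) that did not pass (edgeR adjusted p = 0.190). Igf1 stood at between 0.879% and 0.916% of the summed macrophage markers in the controls and at between 0.841% and 0.896% in the deficient libraries, and these ranges overlapped. Against the summed endothelial markers it was as steady, at between 66.4% and 70.5% in the controls and between 64.9% and 67.8% in the deficient libraries, which also overlapped. That sum was mostly 1 gene, Kdr, with 168 of 179 CPM in control replicate 1 and 203 of 214 CPM in deficient replicate 3. Against the summed mesenchymal crest markers Igf1 stood at between 94.7% and 183% in the controls and at between 230% and 385% in the deficient libraries, with no overlap. These ratios were chosen after the values were seen, and the part of cell content in the level of Igf1 was not tested.

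Of the tested binding protein genes, Igfbp5 was called lower and none of the others was called. Differences between these genes were not tested. Igfbp5 (ENSMUSG00000026185.8, chr1:72857932-72874884, minus strand) encodes a binding protein that also attaches to extracellular matrix. It had 28.1, 37.1 and 20.4 CPM in the controls, against 15.5, 11.9 and 8.74 CPM in deficient cells, and the groups did not overlap. Igfbp5 fell by 1.24 on the log2 scale (SE 0.28, 95% interval -1.93 to -0.56, edgeR adjusted p = 0.0794). Only 4.28% of tested genes had a lower fold change. The call was lost without any 1 of control replicate 1 or 2 or deficient replicate 2 or 3 (edgeR adjusted p between 0.178 and 0.243).

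Igfbp2 (ENSMUSG00000039323.18, chr1:72824503-72852474, plus strand) encodes a binding protein of early epithelia and neuroepithelium and lies 5457 bases from Igfbp5, the genes pointing toward each other. Its level was 8.51, 14.8 and 4.02 CPM in the controls, against 3.60, 6.48 and 1.09 CPM in deficient cells. Libraries varied widely within both groups, and deficient replicate 2 lay above control replicate 3. The log2 fold change of -1.28 was as large as that of Igfbp5, but its SE was 0.77 and its 95% interval ran from -3.24 to 0.68 (edgeR adjusted p = 0.349). It moved to -0.75 without control replicate 2, to -2.00 without deficient replicate 2 and to -0.80 without deficient replicate 3.

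Igfbp4 (ENSMUSG00000017493.12, chr11:99041244-99054392, plus strand) encodes a binding protein that mainly withholds IGFs until it is cleaved by the protease PAPP-A. Its level was 45.5, 48.6 and 41.4 CPM in the controls, against 39.2, 36.0 and 41.9 CPM in deficient cells, and deficient replicate 3 lay within the control range. The log2 fold change was -0.21 (SE 0.086, 95% interval -0.39 to -0.018, edgeR adjusted p = 0.150). Igfbp7 (ENSMUSG00000036256.13, chr5:77349240-77408041, minus strand) encodes a low-affinity relative that is also secreted by vascular cells. It had 7.66, 7.49 and 9.11 CPM in the controls, against 8.07, 8.43 and 8.55 CPM in deficient cells, with the deficient values inside the control range. Its log2 fold change was 0.040 (95% interval -0.31 to 0.39, edgeR adjusted p = 0.899), and 85 bases of its exons overlap Polr2b on the opposite strand.

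Igfbp3 (ENSMUSG00000020427.11, chr11:7206086-7213923, minus strand) encodes the principal IGF carrier of the blood. Its level was 2.34, 1.74 and 3.53 CPM in the controls, against 2.35, 1.65 and 3.09 CPM in deficient cells. The groups overlapped throughout, and with 13 to 65 counts per library the 95% interval of its log2 fold change was wide, from -0.88 to 0.64 (edgeR adjusted p = 0.851). Igfbp6 (ENSMUSG00000023046.6, chr15:102144362-102149511, plus strand) encodes a binding protein that prefers IGF-II. It had 2, 3 and 5 counts in the controls and 16, 10 and 10 counts in the deficient libraries, or between 0.213 and 0.410 CPM against between 0.475 and 1.25 CPM. The groups did not overlap, yet the counts were too few for the filter, and in the fit without a filter the log2 fold change was 1.16 (SE 0.70, edgeR adjusted p = 0.418).

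**Figure D2:**
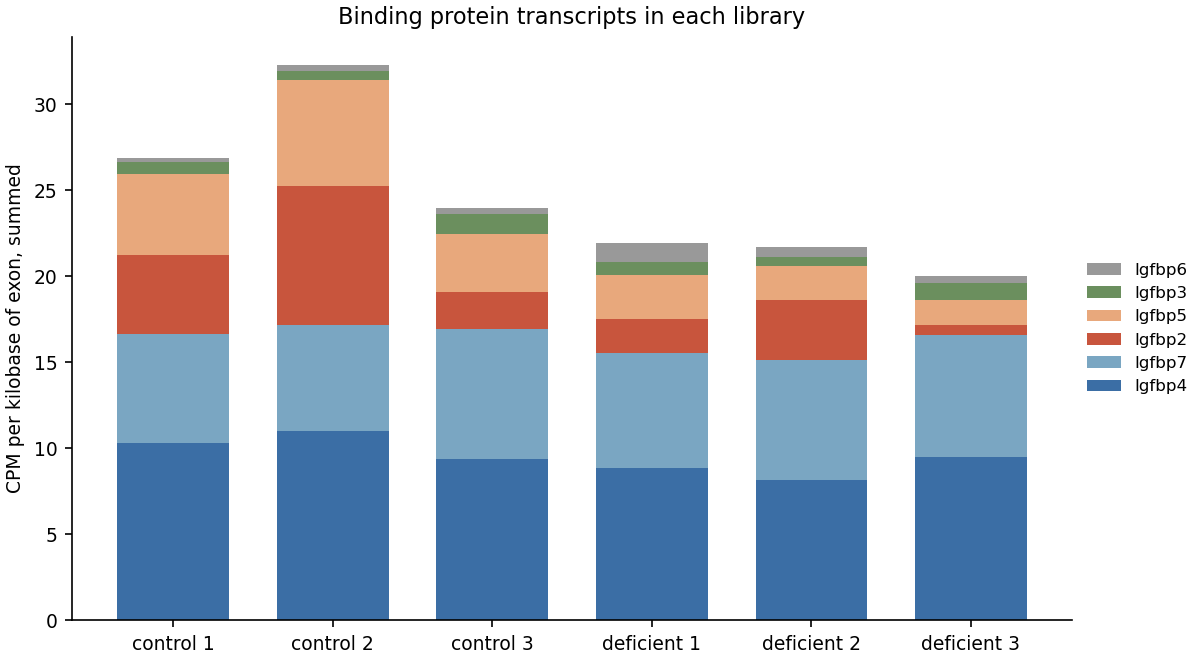
Summed CPM per kilobase of exon of the 6 binding protein genes in each library, stacked by gene. The sum lies between 24.0 and 32.3 in the controls and between 20.0 and 21.9 in the deficient libraries, and the Igfbp2 and Igfbp5 segments vary the most.

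Levels can be set against each other between genes only per kilobase of exon. In the controls the order of mean CPM per kilobase was Igf1 (12.6), Igfbp4 (10.2), Igfbp7 (6.69), Igfbp2 (4.94), Igfbp5 (4.74), Igf1r (1.38), Insr (1.34), Irs1 (1.10), Igfbp3 (0.810) and Igfbp6 (0.307). Neighbours overlapped across the 3 control libraries from Igfbp7 to Igfbp5 and from Igf1r to Igfbp3. The first 6 places were held by the same genes in the deficient libraries, with means of 13.8 for Igf1, 8.84 for Igfbp4, 6.91 for Igfbp7, 2.02 for Igfbp2, 2.01 for Igfbp5 and 0.889 for Igf1r. Below them, Igfbp3, Insr, Igfbp6 and Irs1 lay between 0.634 and 0.755, each overlapping its neighbour. Of the summed binding protein level per kilobase, Igfbp5 made up between 14.1% and 19.1% in the controls and between 7.27% and 11.8% in the deficient libraries, and Igfbp4 and Igfbp7 together were the larger part in every library.

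Igfbp5, Insr and Irs1 were also set beside the markers of the cell types the sort could hold, with ratios chosen after the values were seen. Igfbp5 stood at 28.3%, 30.0% and 28.2% of the summed mesenchymal crest markers in the controls and at 26.4%, 30.5% and 24.2% in the deficient libraries. Insr stood at between 17.9% and 20.3% of that sum in the controls and between 19.3% and 24.8% in the deficient libraries. Irs1 stood at between 9.66% and 11.5% in the controls and between 11.3% and 13.6% in the deficient libraries. For all 3 genes these ranges overlapped between the groups, while as a percentage of the macrophage sum they did not. Against the summed levels of all 50 embryonic markers, which add glial, neuronal and neural tube genes, Insr and Irs1 again overlapped, but Igfbp5 did not, at between 8.31% and 9.02% in the controls and between 6.07% and 7.88% in the deficient libraries. Of the 14 tested mesenchymal crest markers, 7 were called lower and 14 had a log2 fold change below 0, with a median of -1.15. Of all tested genes, 4.88% were called lower and 52.3% lay below 0. Of the 13 macrophage markers, 0 were called in either direction by edgeR, but all 13 had a log2 fold change above 0, with a median of 0.19. The groups did not overlap in 7 of them, where 31.4% of all tested genes had groups that did not overlap, 15% higher. Among the 13, 1, Adgre1, passed the adjusted p (0.21, edgeR adjusted p = 0.0924) but not the fold threshold. Of all tested genes, 4.18% passed the adjusted p and were higher. The part of cell content in the fall of the 3 genes was not tested.

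**Figure D3:**
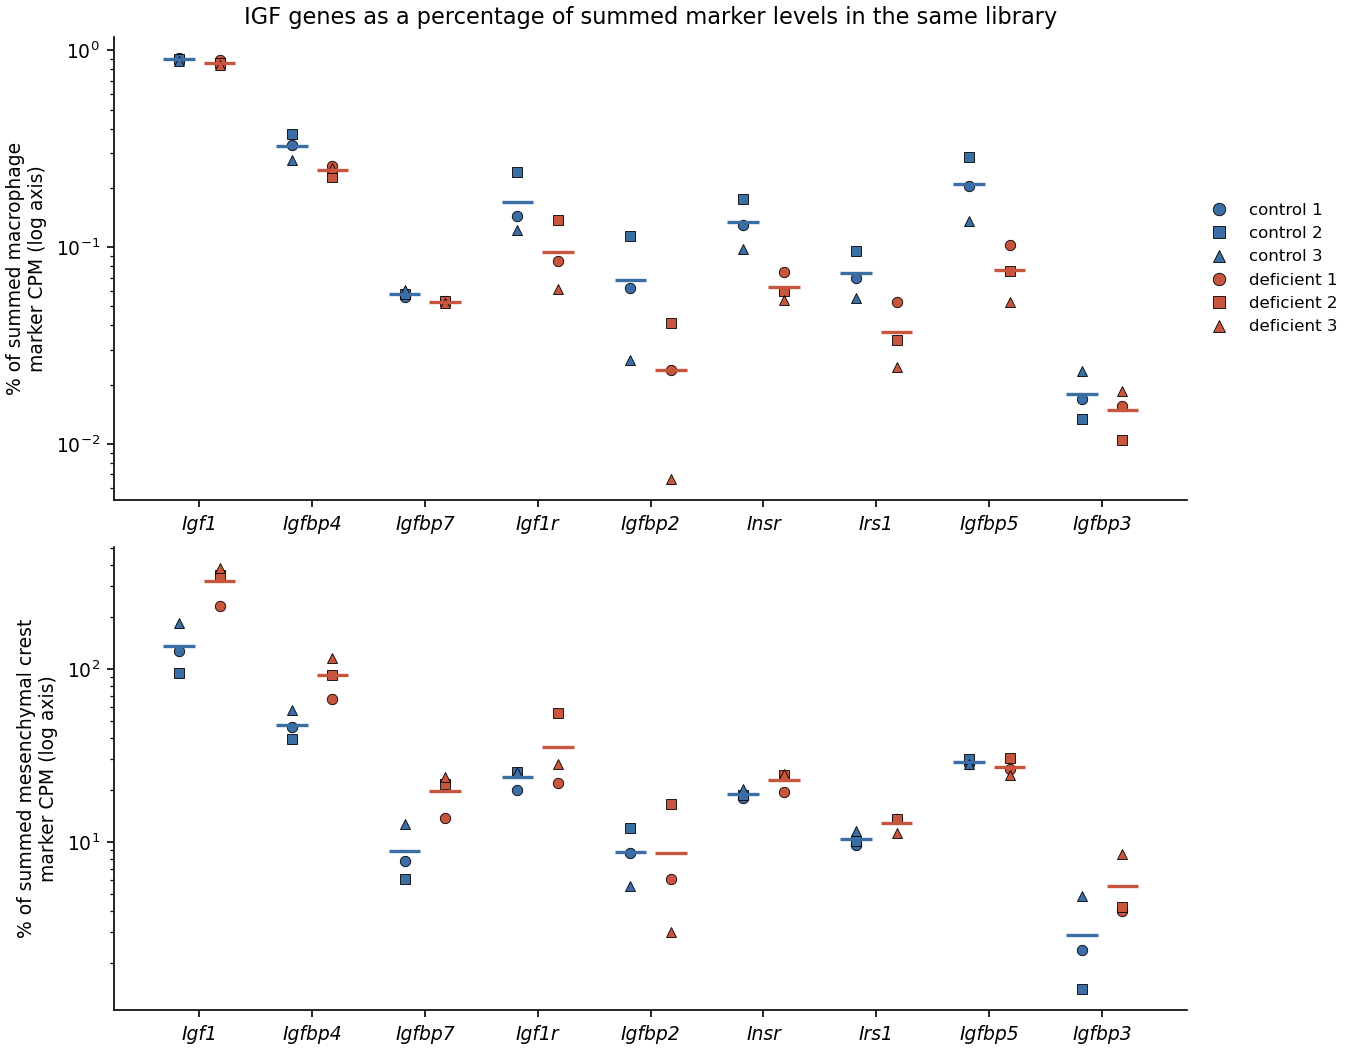
Level of 9 of the genes as a percentage of the summed CPM of the macrophage markers (upper panel) and of the mesenchymal crest markers (lower panel) in the same library, on log axes. Each point is 1 library and bars are group means. Igf1 keeps nearly the same percentage of the macrophage sum in all 6 libraries, as it does of the endothelial sum (mostly Kdr, not plotted). Igfbp5 lies between 28.2% and 30.0% of the mesenchymal crest sum in the controls and between 24.2% and 30.5% in the deficient libraries.

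The choice of scale decided the direction of several genes. When libraries were scaled to 29 embryonic markers in place of TMM, the median of all tested genes moved from -0.018 to 0.92 on the log2 scale. Under that scaling Insr and Irs1 had log2 fold changes of 0.096 and 0.13, and Igfbp5 one of -0.26, none of which was called. A change of scale shifts all genes of a library together, so positions relative to the median of all genes stay close by construction. Relative to that median, the same scaling left Insr at -0.82, Irs1 at -0.79 and Igfbp5 at -1.18, against -0.87, -0.79 and -1.23 with TMM. Igf1 and Igfbp7 were called higher under it, with log2 fold changes of 1.05 and 0.96 (edgeR adjusted p = 0.0516 for each), and lay at 0.13 and 0.04 relative to the median. When libraries were scaled to the macrophage markers the median moved to -0.20, Insr (-1.08) and Igfbp5 (-1.44) stayed called, and Irs1 (-0.99) did not pass (edgeR adjusted p = 0.117).

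**Figure D4:**
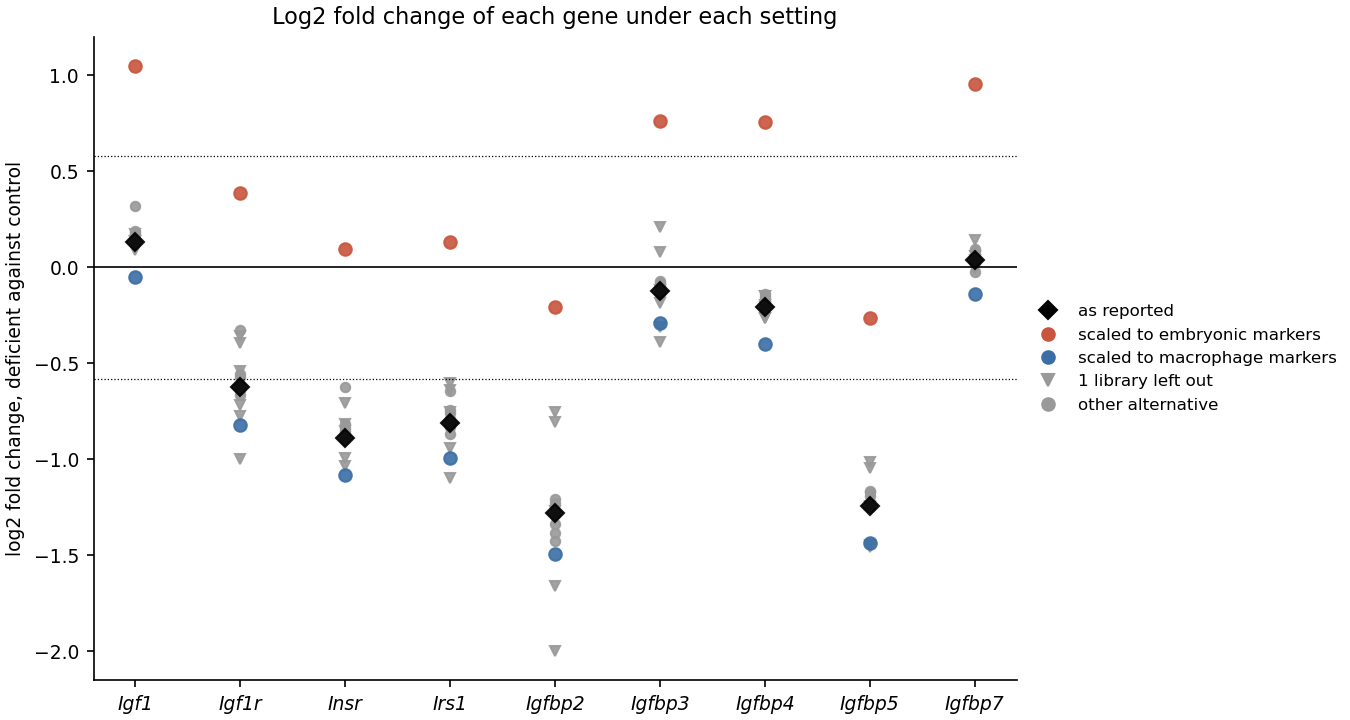
Log2 fold change of each tested gene, deficient against control, as reported (black diamond), with each scaling to marker genes (red and blue circles), with 1 library left out (grey triangles) and under the other alternatives (grey circles). Dotted lines mark the fold threshold of 0.58 in either direction. Insr, Irs1 and Igfbp5 lie below the lower line in every setting but the scaling to embryonic markers.

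The other genes of the pathway were taken from a hand-written list of 44, of which 36 passed the filter. Of these, 1 was called lower and 0 were called higher by edgeR, where 4.88% of all tested genes were called lower. With an unadjusted edgeR p under 0.05 there were 6 lower and 4 higher of the 36, where 27.3% of all tested genes had such a p, so the list stood near the background. DESeq2 called 3 lower (Igfbpl1, Igf2 and Irs2), limma-voom called 3 lower (Igfbpl1, Igf2 and Grb10), and neither called any higher. The list's median log2 fold change was -0.060, beside -0.018 for all tested genes. The called gene was Igfbpl1, which encodes an IGFBP-like protein of the developing nervous system. It had 11.9, 19.4 and 8.04 CPM in the controls, against 5.72, 3.67 and 6.27 CPM in deficient cells, which did not overlap. Igfbpl1 fell by 1.30 on the log2 scale (SE 0.34, edgeR adjusted p = 0.0830). Its call was lost on leaving out any 1 library other than control replicate 3, with edgeR adjusted p values between 0.108 and 0.243. It was lost too when libraries were scaled to embryonic markers (-0.23, edgeR adjusted p = 0.616).

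Igf2, the imprinted gene of the main embryonic ligand, had 37.1, 70.2 and 23.2 CPM in the controls, against 16.1, 10.5 and 9.73 CPM in deficient cells. The groups did not overlap, and its log2 fold change was the most negative of the tested IGF genes at -1.84 (SE 0.51), but the adjusted p of 0.112 missed the threshold (edgeR, Benjamini-Hochberg). Igf2 was called lower by DESeq2 (adjusted p = 0.0115) and limma-voom (adjusted p = 0.0706), and by edgeR without control replicate 3 (adjusted p = 0.0389) and with scaling to embryonic (adjusted p = 0.0937) or macrophage markers (adjusted p = 0.0988). Its log2 fold change ran from -1.32 without control replicate 2 to -2.16 without control replicate 3, and was -0.77 with scaling to embryonic markers. Per kilobase of exon, Igf1 was between 0.961 and 3.28 times the level of Igf2 in the controls and between 4.85 and 8.24 times in the deficient libraries, with no overlap. Igf2r, which encodes the receptor that clears IGF-II, had a log2 fold change of -0.17 (edgeR adjusted p = 0.233).

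Of the other adaptors, Irs2, the relative of Irs1, had 8.40, 11.9 and 5.17 CPM in the controls, against 5.80, 3.79 and 4.56 CPM in deficient cells, with a log2 fold change of -0.83 (SE 0.29, edgeR adjusted p = 0.112). The groups overlapped, since deficient replicate 1 exceeded control replicate 3. Grb10, an imprinted inhibitor of both receptors, had a log2 fold change of -0.93 (SE 0.38, edgeR adjusted p = 0.205) and also overlapped between the groups. Irs2 was called lower by DESeq2 (adjusted p = 0.0756), and by edgeR with library totals (adjusted p = 0.0917) or without a filter (adjusted p = 0.0130), as well as without control replicate 3 or deficient replicate 1. Grb10 was called lower by limma-voom (adjusted p = 0.0849). The 19 tested genes of the PI3K, Akt and mTOR group had a median log2 fold change of -0.040, lay between -0.40 (Gsk3b, 95% interval -0.72 to -0.075) and 0.22 (Akt2), and none was called. Among them, Pik3ca (-0.33, edgeR adjusted p = 0.0719) and Akt2 (0.22, edgeR adjusted p = 0.0785) passed the adjusted p but not the fold threshold. Pik3r3, a regulatory PI3K subunit gene that the list leaves out and that was looked up after its value was known, was called lower (-1.13, SE 0.22, edgeR adjusted p = 0.0483). The 3 tested FoxO factors had log2 fold changes between -0.15 and -0.013.

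**Figure D5:**
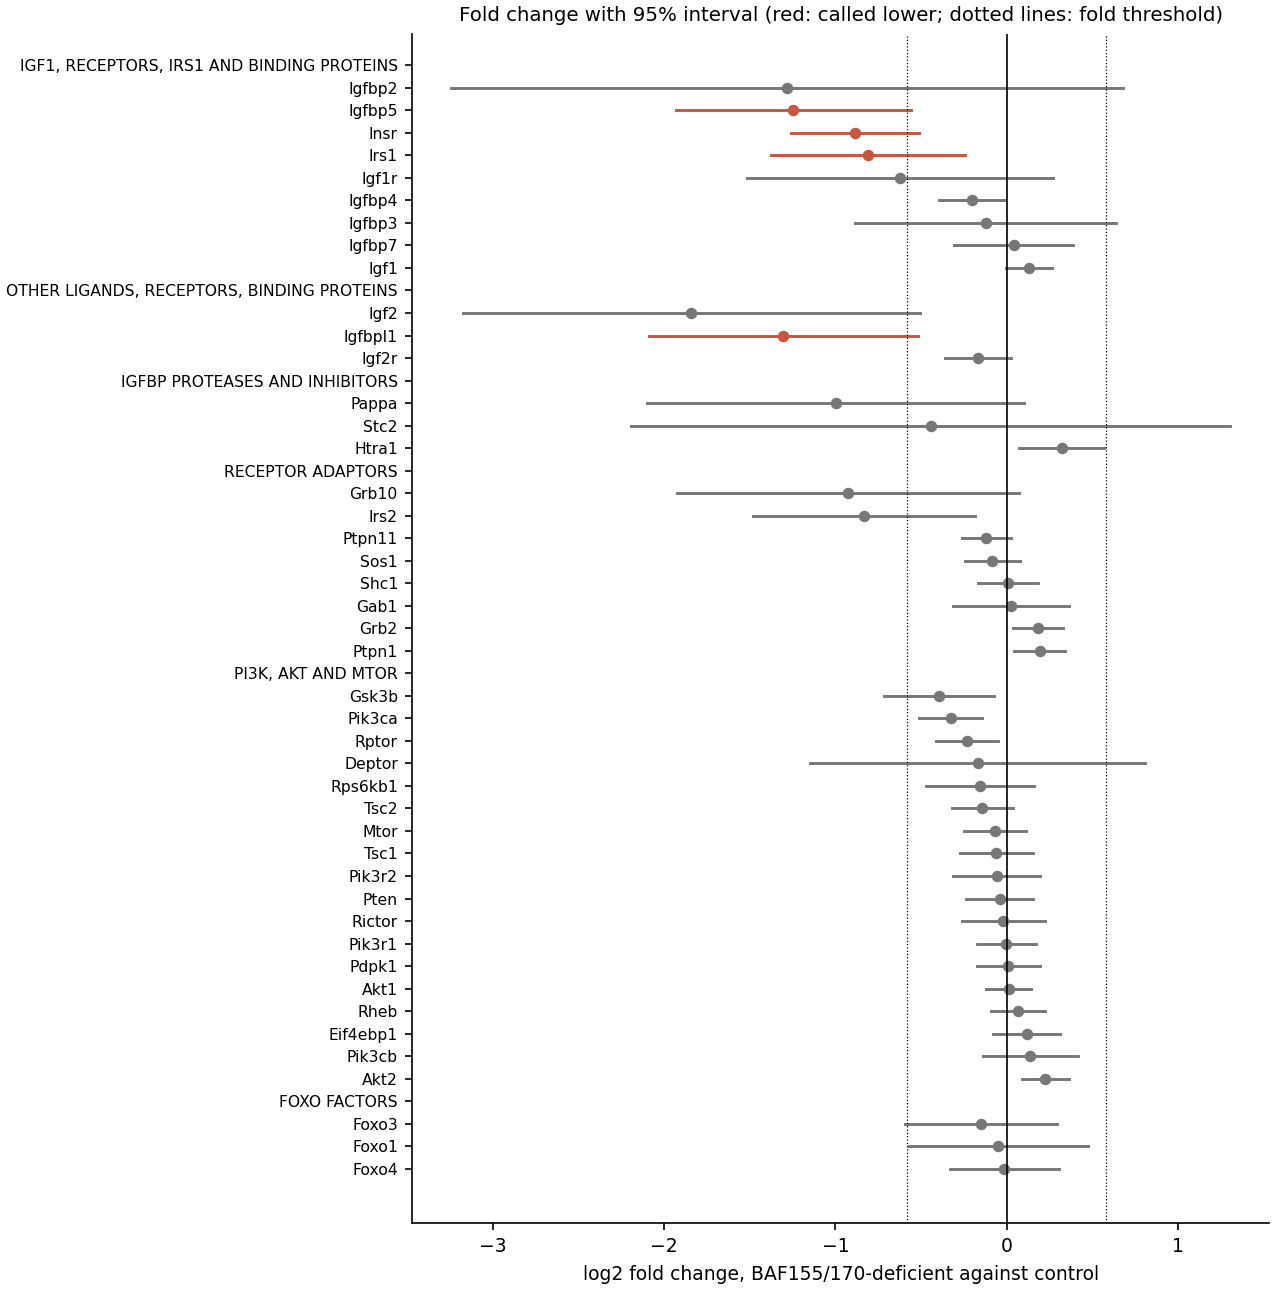
Log2 fold change of the 9 tested genes and of other genes of the IGF pathway, deficient against control, with the 95% interval from edgeR. Red marks genes called lower and dotted lines the fold threshold of 0.58. The called genes are Igfbp5, Insr, Irs1 and Igfbpl1, and the intervals of Akt1 and Akt2 lie within the dotted lines.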

How the data were processed

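Strand-specific poly(A) RNAseq of sorted GFP+ NCCs was deposited as counts per gene. Per the labels and the study's methods, the authors trimmed adapters (cutadapt 1.18), aligned paired-end reads to GRCm38 with STAR and counted them with featureCounts, without normalization. The annotation release, strand setting and treatment of multi-mapping reads are not given in the sources used here. In R 4.3.3, genes were kept by edgeR 4.0.16 filterByExpr (minimum count 10, minimum total 15), scaled by TMM and tested with its quasi-likelihood model (robust, condition as the only term), with p-values Benjamini-Hochberg adjusted over all 13961 genes. Standard errors derive from the F statistic. On simulated counts of 13961 genes, 98% of 200 genes changed 2 log2 units were recovered, with 8 false calls. The called IGF genes changed less, from -0.81 to -1.24 log2 units, and recovery at such sizes was not simulated. The simulation drew rises and falls at even odds and no shift in cell content, so its false calls give no error rate for these data. Alternatives used DESeq2 1.42.0, limma 3.58.1, other filters, scalings, thresholds, a replicate block, a lowess correction for exon length (span 0.3) and each library left out. Genes and lists were chosen with earlier results of these data known. Named genes are the 10 IGF genes, called genes of the pathway list, Igf2, Igf2r, Irs2, Grb10, Smarcc1, Smarcc2 and leading markers, and any other was named after its values were seen. Groups were 3 control and 3 deficient libraries. The counts and medians of the pathway list include a gene whose own values are not reported here.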

Additional observations from a re-analysis of the deposited data

How the results depend on the processing

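The samples share only a replicate number, taken from the sample titles, while the deposited columns number the deficient libraries differently, with correlations of same-numbered deviations of 0.028, -0.034 and 0.29. With the replicate block, 5 IGF genes were called lower (Igf1r and Igfbp2 added), which rests on the title numbers alone, and 1143 genes lower and 21 higher in all. Of the pathway list, 2 were called lower with the block, Irs2 (adjusted p = 0.0677) and Grb10 (adjusted p = 0.0300), and Igfbpl1 lost its call (adjusted p = 0.118), all by edgeR. With 1 library left out, the genes called lower ran from 0 to 1219 of all genes, from 0 to 3 of the IGF genes and from 0 to 3 of the pathway list, and the genes called higher from 0 to 45. No genes were called without control replicate 1, where 2547 had an unadjusted p under 0.05 by edgeR. Leaving out a library turned Igfbp3 to 0.21 (without control replicate 3) or 0.082 (without deficient replicate 2), in a range of -0.39 to 0.21, and Igfbp7 to -0.0077 (without control replicate 2), in a range of -0.0077 to 0.14, all on the log2 scale. With scaling to the embryonic markers, 37 genes were called lower and 8428 higher, among them 0 and 2 IGF genes and 25 pathway genes higher, and Igf1r (0.39), Insr (0.096), Irs1 (0.13), Igfbp3 (0.76) and Igfbp4 (0.76) changed sign. With scaling to the macrophage markers, 0 genes were called higher and 2 pathway genes lower, and Igf1 (-0.051) and Igfbp7 (-0.14) changed sign. The correction for exon length turned Igfbp7 to -0.023. At an adjusted p of at most 0.05, 94 genes were called lower and 0 higher, with 1 IGF gene (Insr) and 0 pathway genes. At an adjusted p of 0.1 alone, 1082 were lower and 583 higher, with 2 pathway genes lower and 1 higher. Pathway genes called lower numbered 3 with DESeq2, 3 with limma-voom, 2 with library totals and 2 without a filter, and genes called higher in all numbered 14 with DESeq2 and 33 without a filter. Under DESeq2, limma-voom, library totals, both other filters and the length correction, the IGF genes called lower were again Insr, Irs1 and Igfbp5. The length correction brought Insr to -0.62 and Irs1 to -0.64, both close to the fold threshold, and left Igfbp5 at -1.16. It moved Igf1r to -0.33 and Igf1 to 0.32, where Igf1 passed the adjusted p (edgeR, 0.0733) but not the fold threshold. The cause of these shifts was not tested.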

Other observations

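Igf1r and Igfbp2 were highest, among the deficient libraries, in replicate 2, where each was at least 1.5 times its level in both other deficient libraries. The same held for 208 of the 11787 genes with a mean of at least 2 CPM, against 466 for replicate 1 (Irs1 among them) and 15 for replicate 3. Dcc, a netrin receptor gene noticed after its values were seen, had the same order of replicates as Igf1r within each group. It had 24.5, 35.3 and 19.2 CPM in the controls, against 16.1, 24.3 and 11.2 CPM in deficient cells. Celsr3, looked up in the same way, shared this order. Vegfa, Slc2a3, Pdk1, Kdm3a, Ddit4 and Plod2 had it in the deficient libraries but not in the controls. Vegfa, for example, had 32.5, 29.0 and 24.5 CPM in the controls, against 29.1, 60.1 and 25.2 CPM in deficient cells. The share of all genes with this order was not counted. The ribosomal RNA row CT010467.1 held 10.3%, 13.7% and 7.10% of the counts in the controls and 7.14%, 8.47% and 4.91% in the deficient libraries, highest in the replicate 2 library of both groups and lowest in the replicate 3 library, as were Igfbp2 and Igf1r. Its part in their levels was not tested.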
